A study of Mus musculus with 14 samples.

Results

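The interleukin 1 family genes described here are the ligand genes Il1a, Il1b, Il18 and Il33, the receptor antagonist gene Il1rn, and the receptor genes Il1r1, Il1r2, Il1rap and Il1rl1. The members were taken by name. Where several probe sets carry a gene's symbol alone, the brightest on average stands for the gene. Of these 9 genes, 7 had such a probe set, with 1 probe set per gene, out of 19938 genes measured in this way. Il1r1 and Il1rl1 were not analysed here.

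RNA from C57BL/6 mice was hybridised to an Affymetrix gene array, with 14 arrays in 7 groups of 2. Organoids are hollow epithelial structures grown from stem or progenitor cells in a gel. The labels do not say whether the 2 arrays of a group hold separate animals or cultures. The p-values therefore measure the spread between these arrays, which may be technical. The organoid groups were gallbladder after differentiation, gallbladder, liver and small intestine. The tissue groups came from the same 3 organs. Sample titles say only intestine, and the extraction protocol names the small intestine. Per the labels, organoids grew in Matrigel in a medium holding B27, N2, N-Acetylcysteine, EGF, FGF10, HGF, nicotinamide, R-spondin 1 and noggin. Differentiated gallbladder organoids had been kept for 2 weeks without R-spondin 1, noggin and nicotinamide. All organoid groups are epithelial cultures without the stroma, vessels and blood cells of the tissue they are set against.

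Interleukin 1 alpha and interleukin 1 beta bind the receptor encoded by Il1r1, which then recruits the accessory protein encoded by Il1rap and signals through MyD88, the IRAK kinases and NF-kB. The antagonist encoded by Il1rn occupies the same receptor without recruiting the accessory protein, and Il1r2 encodes a decoy receptor with no signalling domain. Interleukin 33 uses the same accessory protein together with the receptor encoded by Il1rl1, while interleukin 18 has receptors of its own. Interleukin 1 beta and interleukin 18 are made as precursors that caspase 1 cleaves within inflammasomes, whereas interleukin 1 alpha and interleukin 33 are held in epithelial and other barrier cells and are active without that step.

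Gallbladder and liver organoids had more Il1a and Il1rn signal than small intestine organoids, while Il1b stayed under the lower quartile of all genes in every organoid array. Il1rn was higher in organoids than in the tissue of the same organ in all 3 organs. Il1a was high in gallbladder organoids and low in gallbladder tissue and small intestine organoids. Liver tissue had the highest Il1b and Il1rap, and small intestine tissue the highest Il33. After removal of R-spondin 1, noggin and nicotinamide, no member passed the test in the model of all 14 arrays. There 2.8% of all genes were called higher and 1.93% lower. A model of the 8 organoid arrays alone, added after seeing the data, called 6 of 7 members, with 12% and 11% of all genes.

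Values are log2 probe set signals, in which 1 unit is a doubling of signal. Over all genes the mean signal had a 10th percentile of 5.29, a lower quartile of 6.49, a median of 7.93, an upper quartile of 9.57 and a 90th percentile of 10.73. Without detection calls the noise floor is unknown. Apart from a gene's rough place among these quartiles, levels of different probe sets are not set against each other. The pooled SD between the arrays of a group was 0.0952 to 0.136 in the organoid groups, against 0.289 to 0.404 in the tissue groups. Several tissue arrays stood apart. Gallbladder tissue had summed hepatocyte marker signals of 16.28 and 17.15 (log2 of the summed linear signal of 9 genes), against 17.37 and 17.28 in liver tissue. Small intestine tissue array 2 had a summed pancreatic acinar signal of 15.58 over 6 genes, and array 1 had 9.50. Both gallbladder tissue arrays were also raised in that sum, at 13.55 and 13.76, against 9.47 to 10.54 in organoids and 9.65 in liver tissue. There the rise lay in Ctrb1 alone, with a mean of 13.59 against 7.57 in liver tissue. Cel, Cela1, Cpa1, Cpb1 and Prss2 were not called between gallbladder and liver tissue. In liver tissue array 1 the acute phase gene Saa1 was at 13.46, and in array 2 at 7.23. Liver organoids had Alb at 6.36 and 6.04, against 14.34 and 14.35 in liver tissue, and Krt19 at 13.76 and 13.77, against 7.29 and 7.41 in liver tissue. Alb is a defining hepatocyte gene and Krt19 one of bile duct epithelium. In such bulk samples, fewer cells of a type and less RNA per cell cannot be told apart.

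**Figure D1:**
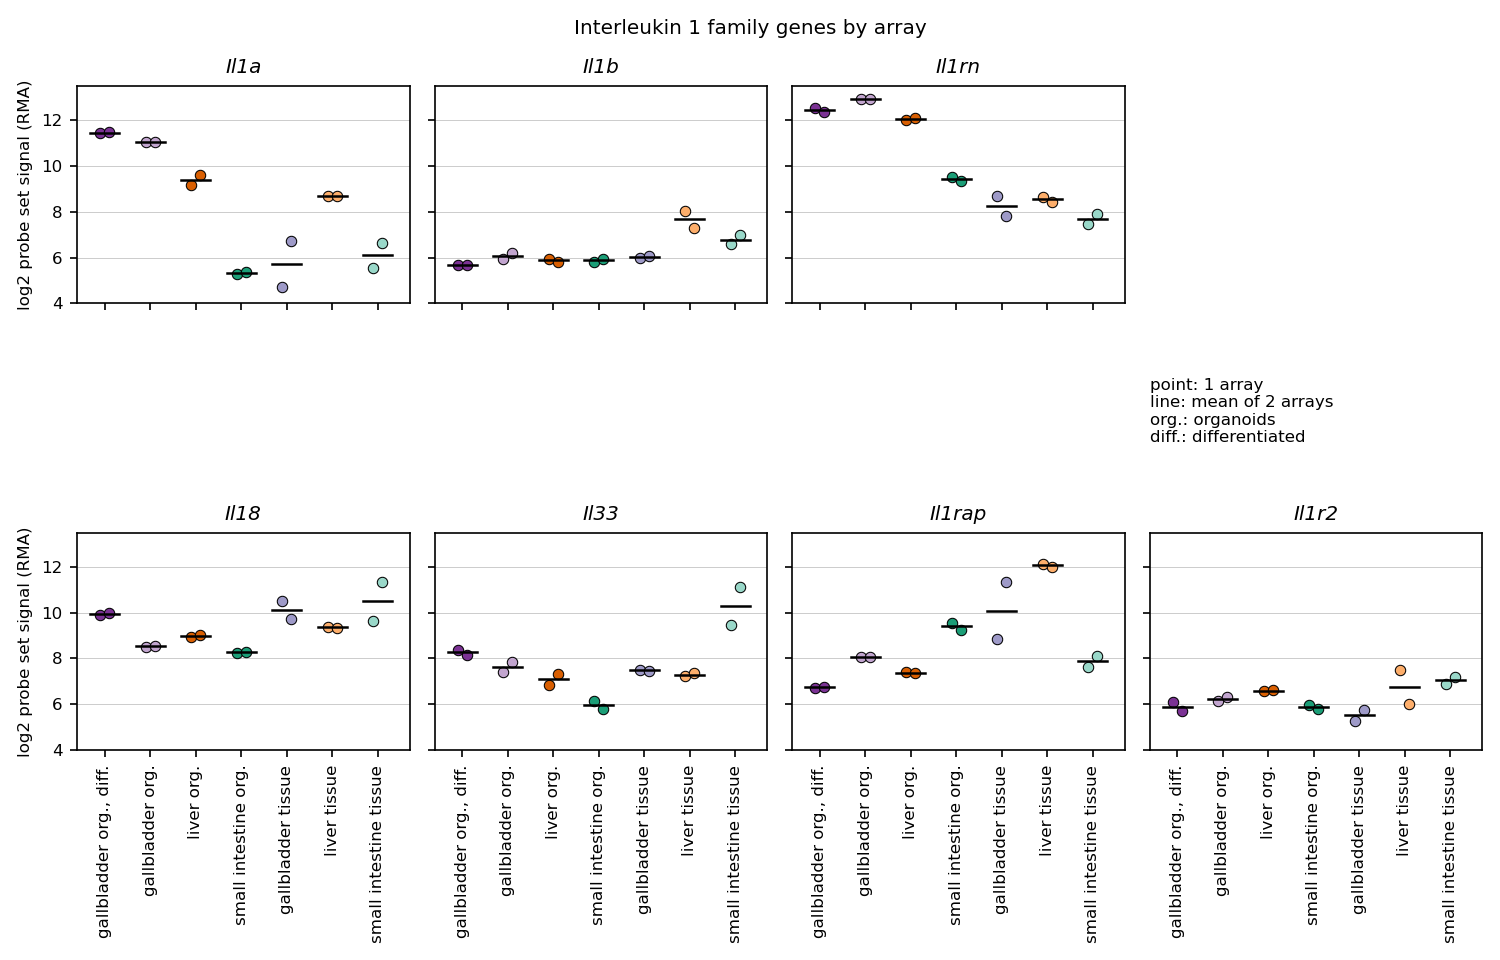
Log2 probe set signal of the 7 measured members (vertical axis) in each group (horizontal axis), with a point per array and a line at the mean of 2 arrays. Il1a and Il1rn sit above 9 in gallbladder and liver organoids, and Il33 exceeds 9 in small intestine tissue alone.

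Il1a, the gene of interleukin 1 alpha, had signals of 11.45 and 11.48 in differentiated gallbladder organoids and of 11.04 and 11.05 in gallbladder organoids. Liver organoids had 9.19 and 9.62, and small intestine organoids had 5.30 and 5.37. In tissue it was at 4.73 and 6.71 in gallbladder, at 8.68 and 8.69 in liver, and at 5.54 and 6.66 in small intestine. The 6 arrays of gallbladder and liver organoids were all above the other 8 arrays, with liver tissue next. The ranges of small intestine tissue and gallbladder tissue overlapped, as did those of gallbladder tissue and small intestine organoids.

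Gallbladder organoids exceeded gallbladder tissue in Il1a by 5.32 ± 0.53 (log2 difference ± SE, limma), with an adjusted p of 3.02e-05. They exceeded small intestine organoids by 5.71 ± 0.53, or 52.3-fold (adjusted p = 1.95e-05). Liver organoids exceeded small intestine organoids by 4.07 ± 0.53 (adjusted p = 0.000227). Among tissues, gallbladder was lower than liver by a log2 difference of -2.96 ± 0.53 (adjusted p = 0.00127), and liver was higher than small intestine by 2.59 ± 0.53 (adjusted p = 0.00293). All 5 calls held in every alternative, with gallbladder against liver tissue at -1.97 without gallbladder tissue array 1.

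The other Il1a differences between pairs of groups missed the threshold. Liver organoids differed from liver tissue by 0.71 (95% interval -0.46 to 1.89), and small intestine organoids from small intestine tissue by -0.76 (-1.94 to 0.41). The excess of gallbladder organoids over liver organoids, 1.64 ± 0.53, had an adjusted p of 0.0706, and passed in 8 of 23 alternatives (adjusted p 1.48e-05 to 0.262 over them). The rise over tissue was greater in gallbladder than in liver by 4.61 ± 0.74 (adjusted p = 0.00112) and greater than in small intestine by 6.08 ± 0.74 (adjusted p = 0.000271), both tested as interaction terms.

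Il1rn, which encodes the secreted and intracellular forms of the receptor antagonist, was at 12.56 and 12.37 in differentiated gallbladder organoids and at 12.94 in both arrays of gallbladder organoids. Liver organoids had 12.00 and 12.12, and small intestine organoids 9.52 and 9.36. Tissue signals were 8.71 and 7.83 in gallbladder, 8.65 and 8.44 in liver, and 7.47 and 7.91 in small intestine. Every organoid array was above every tissue array. No organoid group overlapped its neighbour in the order, while liver tissue overlapped gallbladder tissue and gallbladder tissue overlapped small intestine tissue.

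The antagonist gene was 25.4-fold higher in gallbladder organoids than in gallbladder tissue (log2 difference 4.67 ± 0.25, adjusted p = 5.39e-07). It was 11.4-fold higher in liver organoids than in liver tissue (3.51 ± 0.25, adjusted p = 2.01e-06) and 3.37-fold higher in small intestine organoids than in small intestine tissue (1.75 ± 0.25, adjusted p = 0.000359). The rise was greater in gallbladder than in small intestine by 2.92 ± 0.35 (adjusted p = 0.000248) and greater in liver than in small intestine by 1.76 ± 0.35 (adjusted p = 0.00301). Between organoids, those of gallbladder exceeded those of small intestine by 3.50 ± 0.25 (adjusted p = 3.03e-06), and those of liver exceeded those of small intestine by 2.62 ± 0.25 (adjusted p = 2.45e-05). These 7 calls held in every alternative.

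Smaller differences in Il1rn were less stable. Gallbladder organoids were above liver organoids by 0.88 ± 0.25 (adjusted p = 0.0447). That call was lost in 13 of 23 alternatives, among them the omission of either array of gallbladder or liver organoids (adjusted p 0.000111 to 0.189 over all). Liver tissue was above small intestine tissue by 0.86 ± 0.25 (adjusted p = 0.0199). This call was lost in 3 of 22 alternatives, among them the omission of small intestine tissue array 1 or liver tissue array 1 (adjusted p 0.0014 to 0.126 over its alternatives).

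The 250 bases before the start sites of Il1a and Il1rn are shown, as given by RefSeq on GRCm38.p6. These genes were picked after their values were seen, since both were high in the gallbladder and liver organoids. Capitals mark the letters TGANTCA, the motif bound by AP-1 type factors, which reads the same on both strands. The Il1a sequence is chr2:129309973-129310222 on the minus strand, and the Il1rn sequence is chr2:24336610-24336859 on the plus strand, the first of 3 start sites listed for that gene.
Il1a: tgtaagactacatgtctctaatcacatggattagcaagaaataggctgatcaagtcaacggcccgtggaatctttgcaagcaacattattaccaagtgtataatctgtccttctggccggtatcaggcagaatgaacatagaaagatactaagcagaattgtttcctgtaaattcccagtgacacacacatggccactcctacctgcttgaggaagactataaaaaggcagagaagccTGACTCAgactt
Il1rn: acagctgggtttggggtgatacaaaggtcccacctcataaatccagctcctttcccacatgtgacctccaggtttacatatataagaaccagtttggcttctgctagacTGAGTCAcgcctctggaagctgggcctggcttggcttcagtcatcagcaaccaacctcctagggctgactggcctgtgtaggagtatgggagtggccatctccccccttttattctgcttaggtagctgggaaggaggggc
These are the start sites of the RefSeq promoter table. The annotated span of Il1a, which also takes in predicted transcripts, reaches farther upstream to position 129310186, inside the printed stretch. Counted from the start sites of that table, the match begins 12 bases before it in Il1a (TGACTCA) and 141 bases before it in Il1rn (TGAGTCA). Windows of 250 bases before and 50 after a start site were searched on both strands for all 9 listed genes, 14 windows in all, and these were the 2 that held the letters. The other windows of Il1rn did not hold them, and which start site was in use was not measured. Of all 32851 mouse windows, 7.81% held them, and of all 27025 genes 8.97% had such a window. The letters GGANTTTCC, a motif of kappa B type that does not overlap the other, were in 1 of the 14 windows, the second of Il1rl1, and in 1.25% of all windows. A match is a run of letters and not a measured binding site, and its part in the Il1a and Il1rn signals was not tested.

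Il1b, the gene of interleukin 1 beta, had low signals in all 8 organoid arrays. It was at 5.68 and 5.69 in differentiated gallbladder organoids and at 5.96 and 6.20 in gallbladder organoids. Liver organoids had 5.96 and 5.83, and small intestine organoids 5.83 and 5.96. Gallbladder tissue was at 5.99 and 6.09, liver tissue at 8.05 and 7.30, and small intestine tissue at 6.59 and 6.97. The 4 arrays of liver and small intestine tissue were above the other 10. Gallbladder organoids overlapped gallbladder tissue, and liver organoids overlapped small intestine organoids.

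Liver organoids were below liver tissue in Il1b by a log2 difference of -1.78 ± 0.22 (3.44-fold, adjusted p = 7.59e-05), which held in every alternative. Small intestine organoids were below small intestine tissue by -0.88 ± 0.22 (adjusted p = 0.00897), a call lost without small intestine tissue array 2 or small intestine organoid array 1 (adjusted p 0.00102 to 0.0622 over its alternatives). Gallbladder organoids and gallbladder tissue differed by 0.04 (95% interval -0.44 to 0.52). Gallbladder tissue was lower than liver tissue by -1.64 ± 0.22 (adjusted p = 0.000215) in every alternative. It was lower than small intestine tissue by -0.74 ± 0.22 (adjusted p = 0.0185). That call was lost in 4 of 21 alternatives, among them the omission of small intestine tissue array 2 or gallbladder tissue array 1 (0.00237 to 0.112). Liver tissue exceeded small intestine tissue by 0.90 ± 0.22 (adjusted p = 0.00772). That difference was 0.52 without liver tissue array 1. Its call was lost in 2 of 21 alternatives, among them the omission of small intestine tissue array 1 (adjusted p 0.000442 to 0.127 over its alternatives).

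Interleukin 1 beta is made chiefly by myeloid cells. The summed macrophage signal over 13 markers was 10.08 to 11.20 in the organoid groups and 11.57 to 14.06 in tissue, with liver tissue highest at 14.06 and 13.93. Adgre1, a defining macrophage gene, was at 5.31 to 5.61 in organoids and at 9.58 and 9.65 in liver tissue. The summed neutrophil signal over 10 markers was 10.78 in liver tissue array 1, which also had the higher Il1b, and 9.92 in array 2. Gallbladder organoids had neutrophil sums of 10.12 and 9.97, above that of liver tissue array 2, with Il1b lower than there. No marker can be called absent from these values, and the part of these cells in the Il1b result was not tested.

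**Figure D2:**
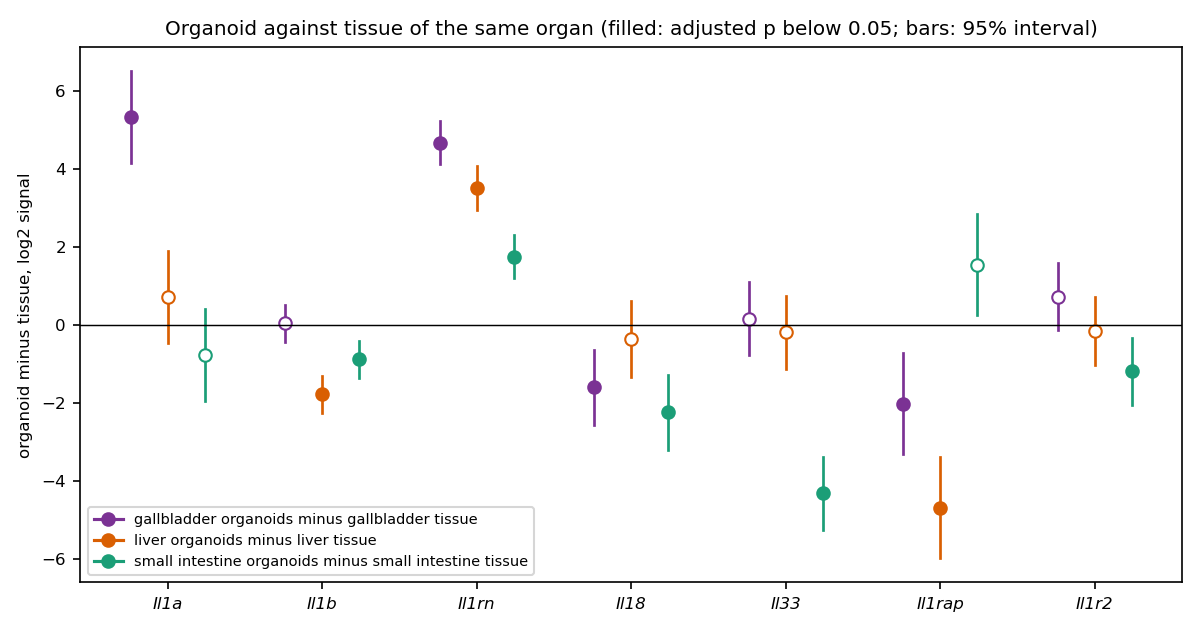
Log2 difference of organoids minus tissue of the same organ (vertical axis) for each of the 7 measured members (horizontal axis), with 95% intervals from limma and filled points where the adjusted p was below 0.05. Il1rn is above 0 in all 3 organs, Il1a at 5.32 in gallbladder alone, and Il33 at -4.32 in small intestine alone.

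Il18, the gene of interleukin 18, was at 9.90 and 10.00 in differentiated gallbladder organoids and at 8.50 and 8.55 in gallbladder organoids. Liver organoids had 8.94 and 9.05, and small intestine organoids 8.24 and 8.30. Gallbladder tissue was at 10.53 and 9.72, liver tissue at 9.38 and 9.34, and small intestine tissue at 9.66 and 11.36. The 3 highest groups, small intestine tissue, gallbladder tissue and differentiated gallbladder organoids, overlapped in sequence, and the lower 4 groups did not overlap. Small intestine organoids were below their tissue by a log2 difference of -2.24 ± 0.43 (adjusted p = 0.00243), and by -1.38 without small intestine tissue array 2. A fit of these 4 arrays alone lost the call (adjusted p 2.86e-05 to 0.055 over its alternatives). Gallbladder organoids were below gallbladder tissue by -1.60 ± 0.43 (adjusted p = 0.0122), a call lost without either gallbladder organoid array or without gallbladder tissue array 1 (adjusted p 0.000245 to 0.0784 over its alternatives). Liver organoids differed from liver tissue by -0.36 (95% interval -1.33 to 0.60).

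Il33, the gene of the alarmin interleukin 33, was at 8.38 and 8.15 in differentiated gallbladder organoids and at 7.42 and 7.86 in gallbladder organoids. Liver organoids had 6.85 and 7.33, and small intestine organoids had 6.16 and 5.79. Tissue signals were 7.50 and 7.46 in gallbladder, 7.22 and 7.35 in liver, and 9.46 and 11.13 in small intestine. Small intestine tissue was above all other groups, and small intestine organoids were below all others. Gallbladder organoids overlapped gallbladder tissue, and liver tissue overlapped liver organoids.

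Small intestine organoids were 19.9-fold below small intestine tissue in Il33 (log2 difference -4.32 ± 0.42, adjusted p = 3.73e-05). Gallbladder tissue was below small intestine tissue by -2.81 ± 0.42 (adjusted p = 0.00044), and liver tissue was below it by -3.01 ± 0.42 (adjusted p = 0.000269). All 3 calls held in every alternative. Gallbladder organoids were above small intestine organoids by 1.66 ± 0.42 (adjusted p = 0.0118), a call lost without gallbladder organoid array 2 or small intestine organoid array 2 (adjusted p 4.07e-05 to 0.0868 over its alternatives). The organoid change in small intestine differed from that in gallbladder by 4.48 ± 0.60 (gallbladder minus small intestine, adjusted p = 0.00045) and from that in liver by 4.12 ± 0.60 (liver minus small intestine, adjusted p = 0.00044).

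Interleukin 33 is stored in the nuclei of stromal, endothelial and some epithelial cells. In small intestine tissue the summed lymphocyte signal over 9 markers was 11.57 in array 1 and 12.65 in array 2, and array 2 also had the higher Il33 and Il18. The summed fibroblast signal over 8 markers was 9.84 to 10.27 in organoids and 12.45 to 14.03 in tissue, highest in gallbladder tissue. In small intestine tissue it was 12.59 in array 1 and 12.45 in array 2, the reverse of the order in Il33. There the endothelial sum over 10 markers was 11.51 and 11.82, and the macrophage sum 11.57 and 12.36. The part of these cells in the Il33 and Il18 results was not tested. Without small intestine tissue array 2, the array with the acinar signal, the Il33 difference of small intestine organoids from tissue was -3.48.

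Il1rap, the gene of the shared accessory protein, was at 6.72 and 6.74 in differentiated gallbladder organoids and at 8.07 in both arrays of gallbladder organoids. Liver organoids had 7.41 and 7.36, and small intestine organoids had 9.56 and 9.25. Gallbladder tissue was at 8.85 and 11.33, liver tissue at 12.12 and 12.01, and small intestine tissue at 7.61 and 8.13. Liver tissue was above all other groups. Gallbladder tissue overlapped small intestine organoids, and gallbladder organoids overlapped small intestine tissue.

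Liver organoids were 25.7-fold below liver tissue in Il1rap (log2 difference -4.68 ± 0.58, adjusted p = 8.67e-05), and liver tissue was 18.3-fold above small intestine tissue (4.19 ± 0.58, adjusted p = 0.00024). Both calls held in every alternative. Liver organoids were below small intestine organoids by -2.02 ± 0.58 (adjusted p = 0.0259), a call lost when any 1 array of those groups was left out (adjusted p 1.67e-07 to 0.133 over its alternatives). Small intestine organoids differed from their tissue by 1.54 ± 0.58, with an adjusted p of 0.0641. The organoid change in liver was below that in small intestine by -6.22 ± 0.82 (adjusted p = 0.000242).

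Each Il1rap result with gallbladder tissue depended on which of its arrays was used. Gallbladder organoids were below gallbladder tissue by -2.02 ± 0.58 (adjusted p = 0.0162), by -3.26 without gallbladder tissue array 1 and by -0.78 without array 2. The call was lost in 3 of 22 alternatives, among them the omission of either gallbladder organoid array (adjusted p 1.65e-06 to 0.141 over its alternatives). Gallbladder tissue was below liver tissue by -1.97 ± 0.58 (adjusted p = 0.0179), by -0.73 without array 1 and by -3.21 without array 2. That call was lost in 3 of 22 alternatives, among them the omission of either liver tissue array (1.51e-06 to 0.157). Gallbladder tissue was above small intestine tissue by 2.22 ± 0.58 (adjusted p = 0.0109), by 3.46 without array 1 and by 0.98 without array 2. This call was lost in 2 of 22 alternatives, among them the omission of small intestine tissue array 1 (1.06e-06 to 0.156).

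Hepatocytes are a known source of Il1rap transcripts. Gallbladder tissue array 2, which had the higher Il1rap, also had the higher summed hepatocyte signal, and Clec4g, a gene of liver sinusoidal endothelium, was at 7.10 in gallbladder tissue array 1 and at 9.78 in array 2. The summed hepatocyte signal was 10.91 and 11.06 in gallbladder organoids and 12.63 to 12.81 in differentiated gallbladder and liver organoids. It was 14.56 and 14.54 in small intestine organoids and 14.92 in both arrays of their tissue, so the sum is not specific to hepatocytes. The part of liver cells in the Il1rap values of gallbladder tissue was not tested.

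**Figure D3:**
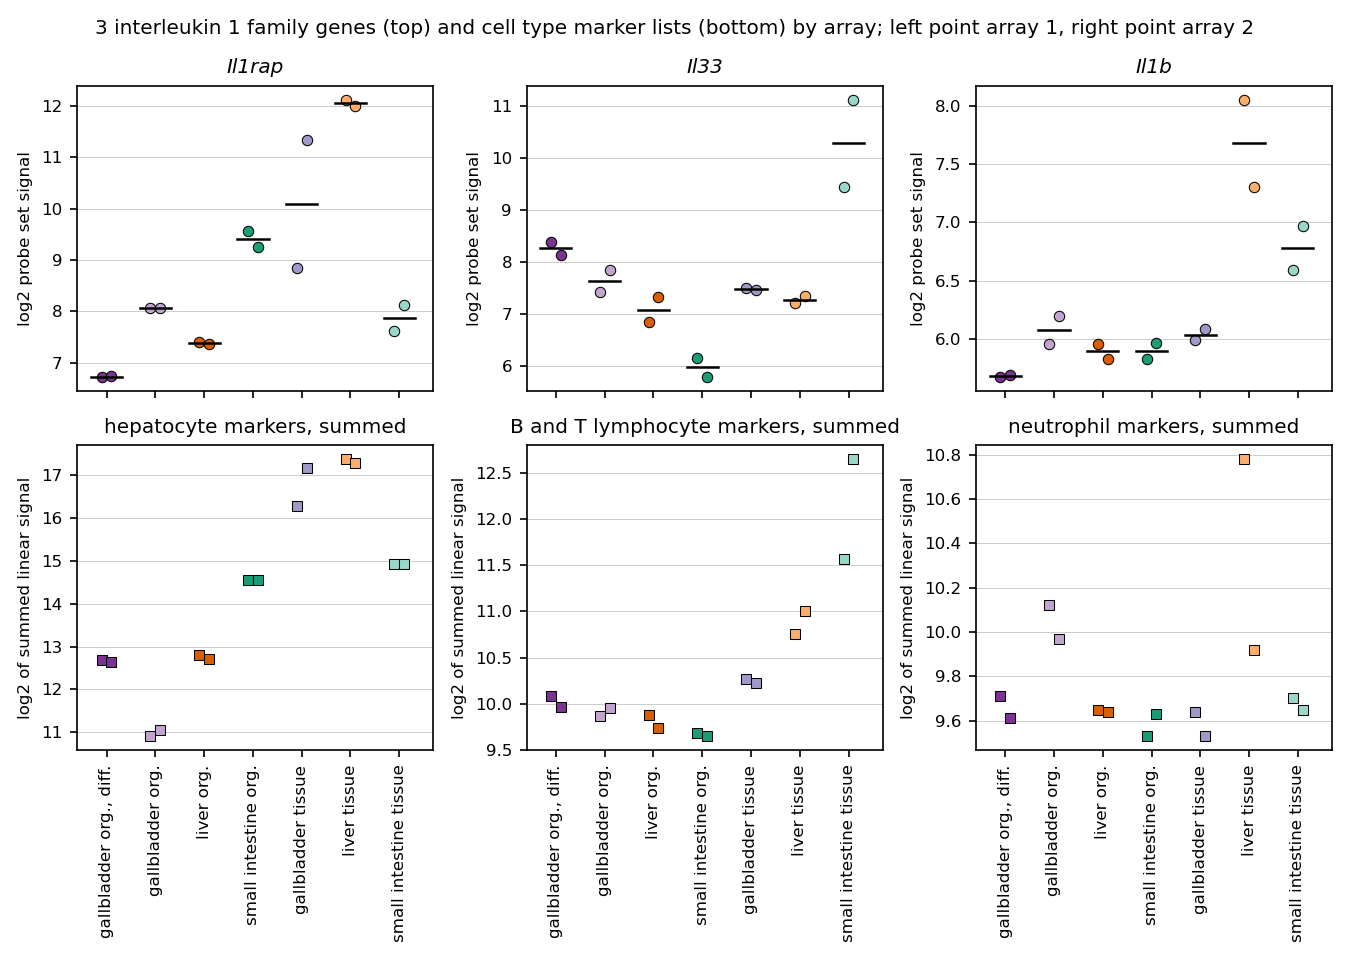
Log2 signal of Il1rap, Il33 and Il1b by array (top row, vertical axis) and the log2 of the summed linear signal of hepatocyte, lymphocyte and neutrophil markers (bottom row) in the same groups (horizontal axis). Array 2 of gallbladder tissue is higher in both Il1rap (11.33) and hepatocyte markers (17.15). The same holds for array 2 of small intestine tissue in Il33 (11.13) and lymphocyte markers (12.65), and array 1 of liver tissue in Il1b (8.05) and neutrophil markers (10.78). Each list drawn has the same order of those arrays as its member, and other sums share it. Array 2 of gallbladder tissue is also higher in the macrophage, endothelial and acinar sums. It is lower in the other sums. Array 1 of liver tissue is also higher in the macrophage, mast cell, fibroblast, hepatocyte, biliary and squamous sums. It is lower in the lymphocyte, endothelial, smooth muscle and intestinal sums. Array 2 of small intestine tissue is also higher in the macrophage, endothelial, mast cell and acinar sums. It is lower in the fibroblast, smooth muscle, neutrophil, intestinal, biliary and squamous sums.

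Il1r2, the gene of the decoy receptor, was at 6.11 and 5.70 in differentiated gallbladder organoids and at 6.13 and 6.34 in gallbladder organoids. Liver organoids had 6.59 and 6.60, and small intestine organoids 5.95 and 5.78. Gallbladder tissue was at 5.27 and 5.75, liver tissue at 7.52 and 6.00, and small intestine tissue at 6.90 and 7.21. The signal was below the lower quartile of all genes in 9 of 14 arrays. Liver tissue overlapped small intestine tissue and every organoid group except that of small intestine. Small intestine organoids were below their tissue by a log2 difference of -1.19 ± 0.39 (adjusted p = 0.0358), a call lost in 9 of 21 alternatives, among them leaving out any 1 array of those groups (adjusted p 0.0012 to 0.153 over all). Gallbladder tissue was below small intestine tissue by -1.55 ± 0.39 (adjusted p = 0.00899), lost without gallbladder tissue array 1 (0.000229 to 0.0536). It was below liver tissue by -1.25 ± 0.39 (adjusted p = 0.0231), by -0.49 without liver tissue array 1 and by -2.01 without array 2. That call was lost in 4 of 21 alternatives, among them the omission of liver tissue array 1 or gallbladder tissue array 1 (0.000267 to 0.165).

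Differentiation of gallbladder organoids, the comparison that follows removal of R-spondin 1, noggin and nicotinamide, gave 0 of the 7 measured members called higher and 0 called lower in the limma model of all 14 arrays, against 2.8% and 1.93% of all genes. At an unadjusted p below 0.05 there were 2 members. Il18 differed by 1.43 ± 0.43 (unadjusted p = 0.0082, adjusted p = 0.108) and Il1rap differed by -1.34 ± 0.58 (unadjusted p = 0.0433, adjusted p = 0.28). The shared spread in that model includes the tissue arrays. In a model of the 8 organoid arrays alone, added after seeing the data, 3 members were called higher and 3 lower, all but Il1r2, where 12% and 11% of all genes were called. Il18 then had an adjusted p of 4.55e-06 and Il1rap of 2.48e-05. Il18, Il1a and Il33 had higher means in the differentiated arrays, and Il1b, Il1r2, Il1rap and Il1rn lower ones. The nearest arrays of the 2 groups in Il1r2 were at 6.11 (differentiated) and 6.13. The median member difference was -0.33, against -0.04 over all genes.

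Between organoids of different origin, 1 of the 7 members was called higher in gallbladder than in liver organoids and 0 lower, where 6.17% of all genes were called higher and 6.52% lower. At an unadjusted p below 0.05 in limma there were 2 members, both higher. Against small intestine organoids, gallbladder organoids had 3 members higher and 0 lower, against 20.2% and 15.4% of all genes. At an unadjusted p below 0.05 Il1rap joined them as lower, with a difference of -1.33 and an adjusted p of 0.101. Liver organoids had 2 members higher and 1 lower than small intestine organoids, against 14.2% and 12.2%. Median member differences in these comparisons were 0.55, 0.37 and 0.73, and those of all genes 0.05, 0.11 and 0.05. Each organoid group enters 2 of these comparisons, so the counts share arrays.

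Set against tissue, gallbladder organoids had 2 members called higher and 2 lower, and 32.7% and 15.2% of all genes were called in those directions. Liver organoids had 1 member higher and 2 lower than liver tissue, against 26.7% and 18.2% of all genes. Small intestine organoids had 1 higher and 4 lower than their tissue, against 20.2% and 15.6%. The median member differences were 0.16, -0.19 and -0.88, and those of all genes 0.17, 0.01 and -0.02. Il1rn was the 1 member called higher in all 3 comparisons.

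Among tissues, gallbladder had 0 members higher and 4 lower than liver, where 20.7% of all genes were called higher and 27.4% lower. With limma at an unadjusted p below 0.05 there were 4 members, all lower. Of all genes called there, 43% were higher, and 32% with each array centred on its median. Gallbladder had 1 member higher and 3 lower than small intestine, against 20.7% and 24.3% of all genes. Liver had 4 higher and 1 lower than small intestine, against 18.7% and 18.8%. The interaction terms called 4 members for gallbladder against liver, 6 for gallbladder against small intestine and 5 for liver against small intestine, where 39.8%, 36.6% and 35.2% of all genes were called.

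Of 24 genes that interleukin 1 and NF-kB are known to induce, 16 were called higher and 0 lower in gallbladder organoids than in gallbladder tissue, with a median difference of 1.45 against 0.17 over all genes. Against small intestine organoids 17 were higher and 0 lower in gallbladder organoids, with a median of 1.71 against 0.11. Liver organoids had 15 higher and 0 lower than small intestine organoids, with a median of 1.24 against 0.05. They had 14 higher and 4 lower than liver tissue, with a median of 1.25 against 0.01. The shares of all genes called higher in these 4 comparisons were 32.7%, 20.2%, 14.2% and 26.7%. The shares called lower were 15.2%, 15.4%, 12.2% and 18.2%. At an unadjusted p below 0.05 in limma, 0 targets were lower in those first 3 comparisons, and 17, 18 and 17 were higher. The list and the comparisons were chosen with these results known. The neutrophil chemokine gene Cxcl5 was at 12.85 and 12.71 in gallbladder organoids, at 10.77 and 11.57 in liver organoids and at 5.43 and 5.60 in small intestine organoids, against 6.18 and 5.62 in gallbladder tissue. Tnfaip2, a gene first found by its induction by TNF, was 4.94 ± 0.14 higher in gallbladder organoids than in gallbladder tissue (adjusted p = 9.21e-09). The 4 that were lower in liver organoids than in liver tissue included the serum amyloid A genes Saa1, Saa2 and Saa3. Of these, Saa1 and Saa2 were highest in liver tissue array 1.

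With differentiation 6 of the 24 targets were called lower and 0 higher than in undifferentiated gallbladder organoids, while 18 were not called. Of all genes, 1.93% were called lower and 2.8% higher. The median target difference was -0.63 against -0.04 over all genes. At an unadjusted p below 0.05 in limma, 12 targets were lower and 0 higher. Csf3, the gene of the granulocyte growth factor G-CSF, was at 7.32 and 7.50 in differentiated organoids, against 10.24 and 9.95 in undifferentiated ones (log2 difference -2.69 ± 0.18, adjusted p = 4.17e-05). The neutrophil chemokine gene Cxcl2 was at 7.96 and 8.22, against 10.72 and 10.65 in undifferentiated ones (-2.60 ± 0.38, adjusted p = 0.0033). Ccl2, which attracts monocytes, was lower by -2.12 ± 0.21 (adjusted p = 0.000306). Il1a had 11.45 and 11.48 in the same differentiated arrays, against 11.04 and 11.05. In the model of the 8 organoid arrays alone, 16 targets were lower and 1 higher, against 11% and 12% of all genes. In small intestine organoids 0 targets were higher and 5 lower than in small intestine tissue, against 20.2% and 15.6% of all genes. The median target difference was -0.21 against -0.02 over all genes. The counts were the same at an unadjusted p below 0.05 in limma. Leaving out 1 array at a time gave 2 to 6 lower genes there and 4 to 7 in differentiated organoids.

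**Figure D4:**
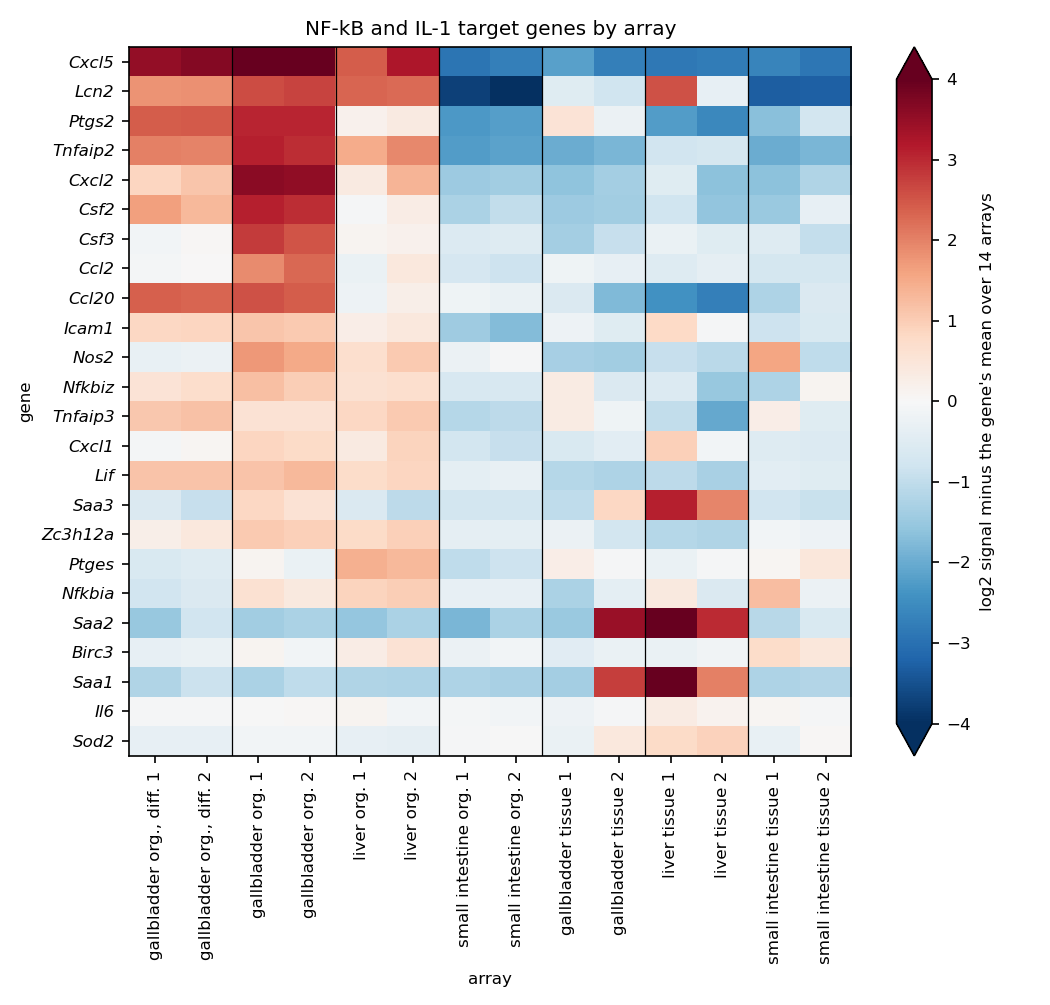
Log2 signal minus the gene's mean over 14 arrays (colour, clipped at 4 either way) for 24 NF-kB and interleukin 1 target genes (rows) in each array (columns), ordered by the difference of gallbladder from small intestine organoids. The upper rows, from Cxcl5 to Csf2, are highest in the undifferentiated gallbladder organoid arrays, and Saa1 and Saa2 are highest in liver tissue array 1.

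Of 15 inflammasome and maturation genes, 3 were called higher and 6 lower in gallbladder than in small intestine organoids, against 20.2% and 15.4% of all genes. Casp1, the gene of the protease that cleaves the interleukin 1 beta and interleukin 18 precursors, was at 5.15 and 5.12 in gallbladder organoids and at 5.17 and 5.25 in liver organoids, against 10.58 and 10.59 in small intestine organoids. The gallbladder difference was -5.45 and the liver one -5.37 (adjusted p = 6.94e-08 and 8.10e-08). Small intestine tissue was at 10.91 and 11.06. Pycard, which encodes the adaptor ASC, was at 8.41 and 8.25 in liver organoids, against 11.17 and 11.36 in small intestine organoids, a difference of -2.94 (adjusted p = 8.50e-07). The sensor gene Nlrp6 was lower in gallbladder than in small intestine organoids by -4.04 (adjusted p = 2.01e-08), whereas Nlrp10, another NLR family gene, was higher by 3.94 (adjusted p = 3.47e-06) and Aim2, a sensor of cytosolic DNA, by 3.10 (adjusted p = 9.04e-05).

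Of the 15 genes on this list, liver organoids had 4 higher and 6 lower than small intestine organoids, against 14.2% and 12.2% of all genes. They had 10 higher and 4 lower than liver tissue, against 26.7% and 18.2% of all genes. Liver tissue was low for the list, with 0 higher and 11 lower than small intestine tissue (18.7% and 18.8% of all genes) and a median difference of -2.00, against 0.04 over all genes. With limma at an unadjusted p below 0.05, 1 was higher. Nlrc4, a sensor that responds to bacterial flagellin through NAIP proteins, was at 5.58 and 5.67 in liver tissue, against 10.41 and 9.85 in small intestine tissue (log2 difference -4.51, adjusted p = 5.33e-08). With differentiation of gallbladder organoids 1 gene was higher, Nlrc4 by 1.04 (adjusted p = 0.0112), and 1 lower, Nlrp10 by a difference of -1.63 (adjusted p = 0.00918). Of all genes, 2.8% were called higher and 1.93% lower in that comparison.

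**Figure D5:**
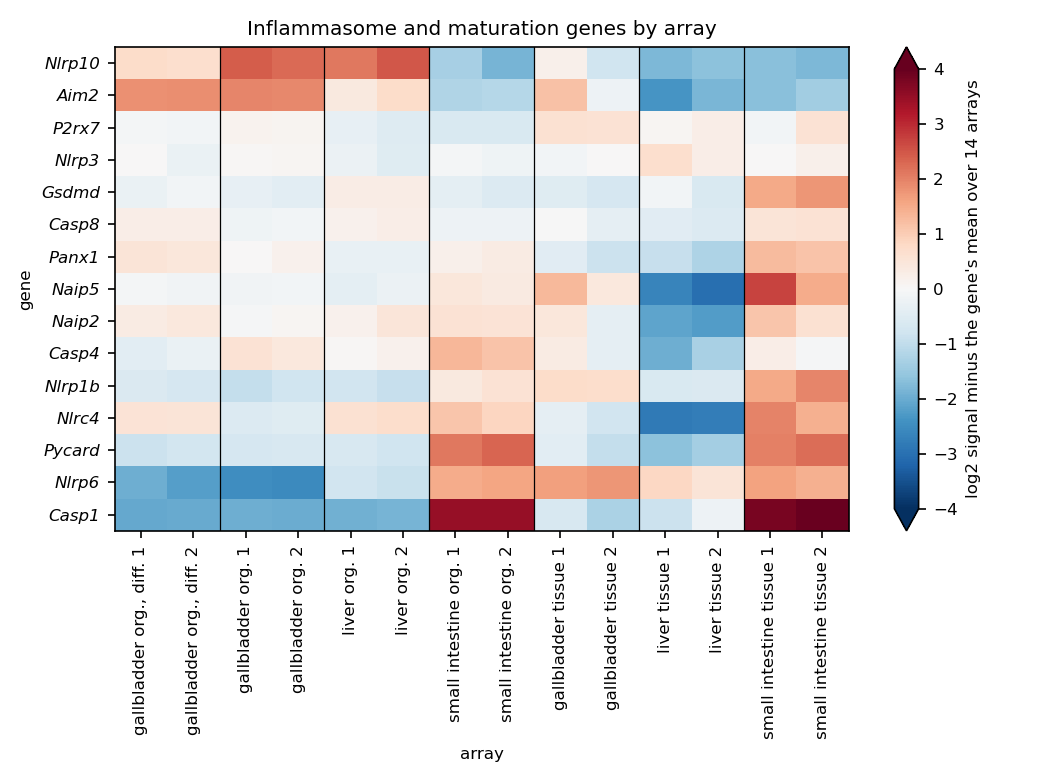
Log2 signal minus the gene's mean over 14 arrays (colour, clipped at 4 either way) for 15 inflammasome and maturation genes (rows) in each array (columns), ordered by the difference of gallbladder from small intestine organoids. Casp1, Nlrp6 and Pycard at the foot are lower in gallbladder and liver organoids than in both small intestine groups, and Nlrp10 and Aim2 at the top are higher.

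The other ligands and soluble inhibitors on the list were Il1f5, Il1f6, Il1f8, Il1f9, Il1f10 and Il18bp, and all 6 were measured. Il1f6, which encodes the alpha form of IL-36, was at 9.43 and 9.18 in differentiated gallbladder organoids, against 7.36 and 7.59 in undifferentiated ones, a difference of 1.83 (adjusted p = 0.000698). Il1f9, which encodes the gamma form of IL-36, was at 7.13 and 7.10, against 5.72 and 5.88 in undifferentiated ones, a difference of 1.32 (adjusted p = 0.000542). These 2 were the genes of this list called higher with differentiation, and 0 were lower, against 2.8% and 1.93% of all genes. At an unadjusted p below 0.05 in limma there were 3 and 0 on this list. Il18bp, which encodes a soluble protein that binds interleukin 18, was lower in liver organoids than in liver tissue by -1.91 (adjusted p = 0.000279), in small intestine organoids than in their tissue by -1.22 (adjusted p = 0.00655), and in gallbladder organoids than in gallbladder tissue by -0.94 (adjusted p = 0.020). The summed macrophage signal was 11.00 and 11.08 in liver organoids, against 14.06 and 13.93 in liver tissue, and its part in the Il18bp result was not tested.

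Other receptor genes of the family were also measured for 6 of 6, and 0 of them were called with differentiation in either direction. Of all genes, 2.8% were called higher and 1.93% lower. At an unadjusted p below 0.05 in limma, 1 of the 6 was higher and 0 lower. Il18r1, a chain of the interleukin 18 receptor, was at 8.32 and 8.62 in liver organoids, against 6.22 and 5.81 in small intestine organoids (log2 difference 2.45, adjusted p = 1.26e-05) and 5.99 and 5.62 in liver tissue (2.67, adjusted p = 4.36e-06). It was lower in gallbladder than in liver organoids by -1.99 (adjusted p = 0.000314). Il1rl2, the IL-36 receptor gene, was higher in gallbladder than in small intestine organoids by 1.24 (adjusted p = 0.000789) and lower in small intestine organoids than in their tissue by -1.41 (adjusted p = 0.00033).

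Of 18 listed signalling genes next to the receptor, 15 were measured. With differentiation 0 were called higher and 0 lower, against 2.8% and 1.93% of all genes. Of the 15, 2 higher and 1 lower passed an unadjusted p below 0.05 in limma. Gallbladder organoids had 4 higher and 1 lower than small intestine organoids, and 6 higher and 0 lower than gallbladder tissue (6 and 0 also at an unadjusted p below 0.05 in limma), with median differences of 0.23 and 0.33. Of all genes, 20.2% were higher and 15.4% lower in the first comparison, and 32.7% and 15.2% in the second, so the shares called higher were near those of all genes. The largest called difference between gallbladder and small intestine organoids was 0.63, in Rela, an NF-kB subunit gene (adjusted p = 0.00418). Of 11 listed partners of interleukin 33 in type 2 responses, 10 were measured. In gallbladder organoids 5 were higher and 1 lower than in small intestine organoids, against 20.2% and 15.4% of all genes, with a median difference of 0.35 against 0.11. The largest difference was that of Il4ra, the interleukin 4 receptor alpha chain gene, at 2.89 (adjusted p = 3.83e-05). Gata3, a transcription factor gene, was the 1 higher with differentiation, by 1.26 (adjusted p = 0.000329), where 2.8% of all genes were called higher.

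Genes of like pattern were sought by Pearson's correlation over the 7 group means, among 9810 genes whose group means spanned at least 1 log2 unit. Il1rn was nearest to 1700017B05Rik (r = 0.994), Fam53c (0.991) and Ptk7 (0.988). Il1a was nearest to Lrrc8a (0.982), Cstb (0.980) and Ctsd (0.975). Il1rap was nearest to Slc25a42 (0.983), C1ra (0.976) and Ranbp6 (0.973), and Il33 to Itgae (0.973), Vps33b (0.964) and Fam214b (0.948). For Il18 the nearest were Gask1b (0.939), Spon1 (0.912) and Slc23a2 (0.893). Il1b and Il1r2, with spans of 1.99 and 1.55, were below the 2 log2 units set for this search. With 7 points and the best of 9810 genes, such coefficients describe these groups only.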

How the data were processed

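Gene expression was measured on 14 arrays. The authors deposited log2 probe set signals made with RMA (robust multi-array average), per the submitters' processing notes. Its version is not given in the sources used here. No raw signals were used. Of 35556 probe sets, 21789 had 1 gene symbol in the array annotation, 1621 had several and 12146 were not listed. Probe sets without exactly 1 symbol were left out. Where several probe sets carried the same symbol (999 genes), the brightest on average was kept, giving 19938 genes. Of the probe sets with 1 symbol, 21698 matched RefSeq by gene number. Array medians were 7.12 to 7.44.

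Groups came from the sample titles. A limma 3.58.1 model in R 4.3.3 gave each group its own mean and used every array (7 residual and 9.91 total degrees of freedom). Differences and interaction terms were tested 2-sided with limma and adjusted by Benjamini-Hochberg over all genes, and called at an adjusted p below 0.05. The smallest 2-sided p of an exact permutation test of 2 arrays against 2 is 0.333, so none was used. The method was tested on simulated data. The members and all gene lists were chosen with earlier results of these data known. Every member is named, and of each list the 4 called genes with the largest differences in a comparison may be named. Identity and artefact markers given beside a result (Saa1, Alb, Krt19, Adgre1, Clec4g), and Il1a repeated beside the targets, were chosen after their values were seen. Alternatives were quantile normalisation, median centring, omission of the dimmest 40% of genes, averaged probe sets, only the arrays compared, array weights, an intensity trend with robust moderation, a replicate block, and each array left out. A fit of the 8 organoid arrays alone and a crossed block were chosen after seeing the data. Deviations of same-numbered arrays were at most weakly correlated (r = -0.104 to 0.139 over 21 pairs of groups), so the numbers were not taken as pairs.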

Additional observations from a re-analysis of the deposited data

Results flagged for a closer look

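The members below changed differently between organoids and tissue in different organs, by limma interaction terms with an adjusted p below 0.05. Each value is the organoid minus tissue difference of the first organ minus that of the second, on the log2 scale. For gallbladder minus liver they were Il1a at 4.61, Il1b at 1.82, Il1rap at 2.66 and Il1rn at 1.16. For gallbladder minus small intestine they were Il1a at 6.08, Il1b at 0.92, Il1r2 at 1.91, Il1rap at -3.55, Il1rn at 2.92 and Il33 at 4.48. For liver minus small intestine they were Il18 at 1.87, Il1b at -0.90, Il1rap at -6.22, Il1rn at 1.76 and Il33 at 4.12. Of these 15 terms, 9 kept their call in every alternative. The gallbladder minus liver terms of Il1rap and Il1rn lost it in 7 and 6 of 22 alternatives. The small intestine terms of Il1b lost it in 14 (gallbladder) and 12 (liver) of 21, that of Il18 in 11 of 22 and that of Il1r2 in 4 of 21. The Il1rap terms with gallbladder moved most with its tissue arrays, to 1.42 for gallbladder minus liver without array 1 and to -2.31 for gallbladder minus small intestine without array 2.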

How the results depend on the processing

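Of 2011 recomputed member values, 1796 stayed on their side of the threshold, 88 passed it, 110 no longer passed it and 17 changed sign, none of them a called value. Of 32 called differences 17 held in every alternative. The cause of the changes was not tested. Fitting only the arrays compared called 6 members for differentiated against undifferentiated gallbladder organoids, against 0 in the model of all arrays (such counts follow in parentheses), 5 (1) for gallbladder against liver organoids, 6 (3) for gallbladder and 6 (3) for liver against small intestine organoids. For tissues it called 2 (4) for gallbladder against liver, 2 (4) for gallbladder and 3 (5) for liver against small intestine, and 3 (5) for the liver minus small intestine interaction. Array weights gave 5 with differentiation, 3 for gallbladder against liver organoids and 6 for liver against small intestine organoids. The 8 organoid arrays alone gave 6, 4, 6 and 6 for differentiation, gallbladder against liver, gallbladder against small intestine and liver against small intestine. Quantile normalisation and median centring gave 0 for gallbladder against liver organoids. Omitting the dimmest 40% of genes gave 3 (5) for small intestine organoids against tissue, and 2 (4) for gallbladder tissue against liver and against small intestine, since it left out Il1b and Il1r2.

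Leaving out 1 array at a time, after which the lone array was assumed to vary like the other groups, gave 0 to 1 with differentiation, 0 to 3 for gallbladder against liver organoids, 2 to 4 and 2 to 5 for gallbladder and liver against small intestine organoids, 2 to 5, 3 to 4 and 3 to 6 for gallbladder, liver and small intestine organoids against tissue, 2 to 5 and 2 to 6 for gallbladder tissue against liver and small intestine, and 4 to 6 for liver against small intestine tissue. The interactions gave 2 to 5, 4 to 7 and 3 to 6. Uncalled values that changed sign were Il1b between liver and small intestine organoids (-0.0438 with quantile normalisation, -0.0377 with median centring, -0.0670 to 0.0683 with an array left out) and between gallbladder organoids and tissue (-0.0145 with quantile normalisation, -0.0813 to 0.16). The others did so with an array left out, Il33 between organoids and tissue of gallbladder (-0.0590 to 0.38) and liver (-0.43 to 0.0445), Il1r2 between liver organoids and tissue (-0.92 to 0.60), Il1rn between gallbladder and liver tissue (-0.72 to 0.16), Il1a (-1.37 to 0.61) and Il18 (-1.24 to 0.47) between gallbladder and small intestine tissue, Il1r2 between liver and small intestine tissue (-1.05 to 0.46), and the gallbladder minus small intestine term of Il18 (-0.22 to 1.49).

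The replicate block left the counts of all 10 differences at 0, 1, 3, 3, 4, 3, 5, 4, 4 and 5, and gave 4, 5 and 4 for the interactions. It ended the calls of Il1rn between gallbladder and liver organoids (adjusted p = 0.0519) and of Il1b in the gallbladder minus small intestine (0.0513) and liver minus small intestine (0.0589) terms, and passed Il1a between gallbladder and liver organoids (0.046). Crossing the gallbladder organoid numbers gave 0 members with differentiation. Over all genes, fitting only the arrays compared called 5353 (943) with differentiation, 7092 (2530) for gallbladder against liver and 11709 (7100) against small intestine organoids, and 3824 (9597), 3224 (8973) and 3962 (7485) for gallbladder against liver, gallbladder against small intestine and liver against small intestine tissue. Array weights called 5720, 7399, 12112 and 8191 (5275) in the organoid comparisons and 5910 and 5154 in those of gallbladder tissue. With differentiation they moved the share called higher to 48.2%, against 59.3%, and fitting only the arrays compared moved it to 57.8% for gallbladder against liver tissue, against 43%. Median centring shifted the median of all genes by -0.115 for gallbladder against liver tissue and by 0.119 for the gallbladder minus liver interaction. With 2 arrays per group, the number of arrays limits the precision, and the noise floor is unknown.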

Other observations

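Of 8 genes of squamous and basal epithelium, 5 were called higher and 0 lower in gallbladder organoids than in gallbladder tissue, with a median log2 difference of 0.96 against 0.17 over all genes, and 6 were higher and 0 lower in liver organoids than in liver tissue. Of all genes, 32.7% and 26.7% were called higher in these comparisons, and 15.2% and 18.2% lower. The counts were the same at an unadjusted p below 0.05 in limma. Ivl, the gene of involucrin, was 5.24 ± 0.16 higher in gallbladder organoids than in gallbladder tissue (log2 difference ± SE, limma adjusted p = 2.23e-08) and 5.84 higher in liver organoids than in liver tissue. Krt6a, a keratin gene of stressed and stratified epithelium, was 2.87 higher in gallbladder organoids than in gallbladder tissue. The basal cell gene Trp63 was not called, with differences of 0.20 in gallbladder (limma adjusted p = 0.148) and 0.0040 in liver (0.980). Krt13 was not called in either organ, and Krt14 differed by -0.0090 in gallbladder (0.957) and 0.32 in liver (0.0481). With differentiation 2 of the 8 were higher, Dsg3, a desmosome gene, by 2.50 (adjusted p = 7.43e-06) and Krt4, a keratin gene of stratified epithelium, by 2.17 (adjusted p = 0.000484). Of all genes, 2.8% were called higher with differentiation. Trp63, Krt13 and Krt14 were named after their values were seen.

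Of 9 mast cell genes, gallbladder tissue had 4 called higher and 0 lower than liver tissue, and 4 and 0 than small intestine tissue. Of all genes, 20.7% were called higher in each, and 27.4% and 24.3% lower. In limma at an unadjusted p below 0.05 the mast cell counts were 5 and 0, and 4 and 1. The summed signal of the list was 10.79 and 9.69 in the arrays of gallbladder tissue, over 1 log2 unit apart. Cpa3 was higher in gallbladder tissue than in liver tissue by 2.98 (limma adjusted p = 0.000434) and than in small intestine tissue by 2.77. Of the same 9 genes, 2 were higher and 0 lower in gallbladder and in liver organoids than in small intestine organoids. Of all genes, 20.2% and 14.2% were called higher there, and 15.4% and 12.2% lower. The 2 were the protease genes Mcpt1 and Mcpt2, higher by 2.41 and 2.73 in gallbladder organoids and by 3.53 and 3.86 in liver organoids. In limma at an unadjusted p below 0.05, 3 and 2 were higher and 0 lower.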
